A study of Mus musculus with 48 samples.

Results

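The 86 peaks described here are the accessible sites assigned to 5 transcription factor genes of stem-like CD8 T cells, Tcf7, Lef1, Myb, Bach2 and Satb1, out of 53868 peaks in the ATAC-seq table. A peak was taken as a member if it overlapped the protein-coding gene body (53 peaks) or, failing any gene body, if one of these genes was the nearest within 100 kb (33 peaks). Bach2 held 35 peaks, Lef1 16, Myb 14, Tcf7 12 and Satb1 9, together 100898 bp of sequence. ATAC-seq inserts sequencing adapters into open chromatin with the Tn5 transposase, so the reads in a peak measure how accessible that site was, not how much of a transcript or protein was made.

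The cells were OT-1 CD8 T cells, which recognise a peptide of ovalbumin, carrying the CD45.1 allele and Cas9. A lentivirus with an ametrine reporter brought in 1 guide, against Zfp219, against Dusp5, or the control that the labels call OTC, and the sorted cells were given to young or aged mice 1 day before inoculation with B16-OVA, a mouse melanoma line that expresses ovalbumin. On day 15 the ametrine-positive cells were sorted from the tumours by 2 surface proteins: Tprog (progenitor exhausted) carried Slamf6 without Tim-3, Ttran (transitory or effector-like) carried both, Tterm (terminally exhausted) carried Tim-3 without Slamf6, and Ttad, a name the labels do not spell out, carried neither. All 21 groups therefore share the donor cells, Cas9, a guide vector and the tumour, and differ in guide, host age and sorted state. Cells of several mice were pooled into 2 or 3 replicates, which makes 48 libraries. In aged hosts each guide had 2 libraries in each of the 4 states, and in young hosts each guide had 2 of Tprog and 3 each of Ttran and Tterm. The host ages were read from letters in the sample titles. Which mice entered which pool was not stated, so every p-value below measures the spread between pooled libraries. The labels record Zfp219 and Dusp5 as knockouts, and accessibility does not show whether a guide cut its target.

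Tcf7 encodes TCF1 and Lef1 encodes its close relative LEF1, HMG-box factors that can act with beta-catenin in Wnt signalling or with Groucho/TLE corepressors, and TCF1 is the defining factor of the exhausted progenitors that renew themselves and respond to checkpoint blockade. Myb is needed for the self-renewal of exhausted progenitors, Bach2 is a repressor that competes with AP-1 factors and holds T cells back from effector and terminal fates, and Satb1 organises chromatin in developing and mature T cells. In chronic infection and tumours the stem-like programme is lost step by step as cells pass to terminal exhaustion.

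The start regions printed here are 4 of those that a peak covers. The Tcf7 start and the alternative Satb1 start lay in peaks that were more accessible in Tprog than in Tterm, while the main Myb and Satb1 starts lay in peaks that were not called in that comparison. The sequences are the 250 bases before a RefSeq transcript start in GRCm38.p6, all on the minus strand. The Tcf7 window (chr11:52282596-52282845) precedes a start inside the gene body, the Myb window (chr10:21160985-21161234) and the first Satb1 window (chr17:51833291-51833540) precede the outermost starts, and the other Satb1 window (chr17:51826589-51826838) precedes an internal start. Capitals mark matches, on either strand, to 5 short motifs that were searched: the TCF/LEF core TCAAAG, the Runx site TGTGGT, the AP-1 site TGANTCA, the Myb core AACTG and the ETS site CGGAAG.
Tcf7 start: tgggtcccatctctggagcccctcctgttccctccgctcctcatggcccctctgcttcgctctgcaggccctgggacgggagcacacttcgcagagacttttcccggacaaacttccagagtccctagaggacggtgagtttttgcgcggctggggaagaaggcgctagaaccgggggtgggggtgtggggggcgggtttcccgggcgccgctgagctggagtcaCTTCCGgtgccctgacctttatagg
Myb start: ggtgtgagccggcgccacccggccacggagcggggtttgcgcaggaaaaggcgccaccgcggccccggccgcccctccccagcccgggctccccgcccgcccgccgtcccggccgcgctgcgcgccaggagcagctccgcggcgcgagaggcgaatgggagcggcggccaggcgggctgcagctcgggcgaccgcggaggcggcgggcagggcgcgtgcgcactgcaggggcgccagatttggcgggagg
Satb1 main start: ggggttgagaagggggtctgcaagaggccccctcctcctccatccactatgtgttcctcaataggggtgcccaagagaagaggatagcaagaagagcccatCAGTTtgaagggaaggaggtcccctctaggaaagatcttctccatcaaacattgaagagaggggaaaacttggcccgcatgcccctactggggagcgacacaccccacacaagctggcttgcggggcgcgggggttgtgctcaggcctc
Satb1 alternative start: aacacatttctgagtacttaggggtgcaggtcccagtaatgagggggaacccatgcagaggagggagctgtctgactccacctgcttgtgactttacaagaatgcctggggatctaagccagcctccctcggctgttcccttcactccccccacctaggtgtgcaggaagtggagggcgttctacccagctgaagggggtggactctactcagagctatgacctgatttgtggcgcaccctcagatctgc

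The Tcf7 window held 1 ETS match, read on the other strand as CTTCCG, the main Satb1 window held 1 Myb core, read as CAGTT, and the other windows held none of the 5. Of all 32851 windows of this length in the same table, 13.8% held TCAAAG, 14.1% TGTGGT, 6.75% TGANTCA, 39.1% AACTG and 13.6% CGGAAG, with some letters shared where motifs overlap. A match describes the letters and is not evidence of binding. For Bach2 the one RefSeq window lay 6361 bp from the nearest peak. For Lef1 the outermost window lay 646 bp from one, so neither is printed. A Lef1 window (chr3:131112541-131112790), another Tcf7 window (chr11:52283015-52283264) and another Satb1 window (chr17:51832648-51832897) also lay in peaks. They held none of the 5 motifs and are not printed. Exon and intron positions of the peaks were not analysed here.

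Deposited values are normalised read counts, that is, reads in a peak divided by 1 factor per library. The total of reads in all peaks lay between 5638413 and 16159054 in aged and between 6589023 and 29942755 in young libraries. Differences are given as log2 fold changes of (value + 1), with standard errors (SE) and Benjamini-Hochberg adjusted p-values over all 53868 peaks from limma, and calls are those with an adjusted p under 0.05. Mean values over the 48 libraries ran from 8.02 to 3008 among the 86 members, and 6 weak peaks (1 of Tcf7, 4 of Bach2, 1 of Satb1) had 0 reads in 1 or 2 libraries. Summed over its peaks and divided by their width, 4 loci had overlapping densities of reads, and Satb1 lay below all of them: 197 to 424 normalised reads per kb over the 21 group means for Tcf7, 232 to 316 for Lef1, 256 to 339 for Myb, 271 to 401 for Bach2 and 89.9 to 176 for Satb1. These loci are rich in peaks: a gene had a median of 2, and 92.4% to 99.9% of the 15013 genes with any peak had fewer than Satb1 and Bach2, respectively.

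All 7 listed CD8 T cell markers had peaks, with summed values of 16620 to 23480 per library. No peak was assigned to Cd79a or Ms4a1 (B cells), Foxp3 (regulatory T cells), Lyz2, Csf1r or Adgre1 (myeloid cells) or Tyr or Dct (melanocytes). Of the other listed genes, 4 of 6 for melanocytes, 2 of 5 for myeloid, 2 of 3 for CD4 T and 2 of 2 for NK cells had peaks. The ranges of most of these sums did not overlap between control Tprog and Tterm at the same host age, the exception being the myeloid sum in young hosts. The 1 B cell gene of 4 with peaks, Pax5, had 513.7 to 523.1 in aged and 515.8 to 588.7 in young control Tprog libraries, against 285 to 336.7 and 279.9 to 309.1 in Tterm. The melanocyte sum was 1344 to 1382 in aged and 1568 to 1633 in young Tprog, against 1248 to 1256 and 1269 to 1328 in Tterm, and the NK sum was 2651 to 2744 and 2700 to 2772 against 2211 to 2437 and 2247 to 2422. In the other direction, the CD4 sum was 1233 to 1263 and 1290 to 1472 in Tprog against 1707 to 1733 and 1714 to 1760 in Tterm, and the myeloid sum was 614.8 to 626.4 in aged Tprog against 664.4 to 745.2, with young libraries at 785.4 to 817.4 against 816.1 to 909.5. The part of such signal in the differences below was not tested. In bulk sorted cells, a larger share of cells with an open site and a more open site per cell cannot be told apart.

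Tprog and Tterm, the ends of the exhaustion series, differed at many of these sites. In aged hosts 32 of the 86 peaks were higher in Tprog and 11 lower with the control guide, beside 8.88% higher and 11.2% lower among all peaks (20.1% called in all). In young hosts 42 were higher and 6 lower, beside 13.9% and 12.6% (26.5% in all). The median log2 fold change over the 86 peaks was 0.41 in aged and 0.61 in young hosts, where that over all peaks was 0.01 in both. Among the 86 peaks the direction differed between gene bodies and flanks. In aged hosts 25 of the 53 body peaks were higher and 1 lower. The 33 flanking peaks had 7 higher and 10 lower. Myb held 12 of these flanking peaks but 2 of the body peaks, so position and gene were not separated. Shares over all body and all flanking peaks are not given here. Called higher in both host ages were 29 peaks, and 5 were called lower in both.

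**Figure D1:**
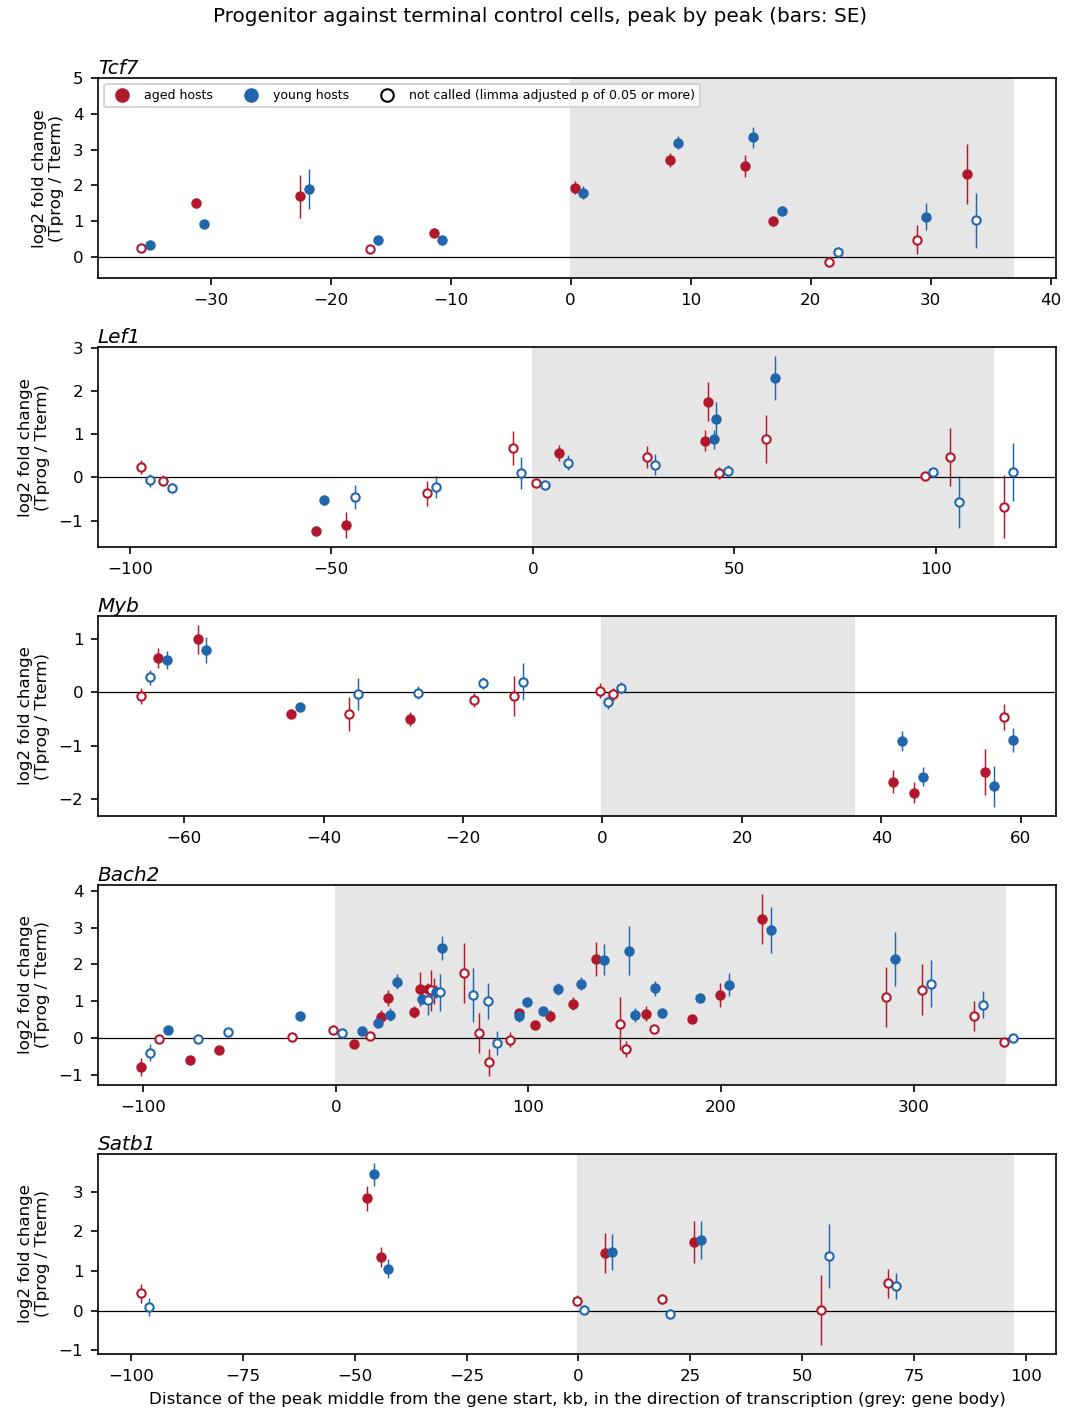
Log2 fold change (Tprog over Tterm, control guide) of each of the 86 peaks against the distance of the peak from the gene's start in kb, in the direction of transcription; bars are standard errors, red is aged and blue is young hosts, drawn slightly apart, open symbols were not called and the grey band is the gene body. The Tcf7 and Satb1 peaks lie mostly above 0, most Bach2 body peaks lie above 0, and the Myb peaks past the end of the gene lie below 0.

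At Tcf7 (chr11:52246527-52283383), 8 of 12 peaks were higher in aged and 10 in young Tprog, and none was lower. The peak over the gene start (chr11:52281225-52284085), which holds the Tcf7 window printed above, had values of 483 and 523 in aged Tprog, 342 and 230 in Ttad, 179 and 271 in Ttran and 144 and 119 in Tterm. In young hosts it had 455 and 490 in Tprog, 172, 203 and 191 in Ttran and 138, 124 and 145 in Tterm. Both Tprog libraries of each host age stood above every library of the other states, and Ttad lay between Tprog and Tterm. Tprog exceeded Tterm by 1.93 (SE 0.19, adjusted p = 2.44e-14) on the log2 scale in aged and 1.80 (SE 0.17, adjusted p = 5.85e-15) in young hosts. Over all guides and both ages the peak ranged from 375 to 529 in the 12 Tprog libraries, from 138 to 309 in the 15 Ttran libraries and from 107 to 163 in the 15 Tterm libraries.

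A wider gap was seen 8.65 kb inside the gene (chr11:52273512-52275959). Aged libraries gave 628 and 578 in Tprog, 218 and 293 in Ttad, 196 and 156 in Ttran and 89.3 and 94.4 in Tterm, and young libraries gave 844 and 880 in Tprog, 136, 220 and 192 in Ttran and 86.6, 104 and 91.1 in Tterm. No libraries of Tprog overlapped those of another state. The log2 fold change was 2.70 (SE 0.20, adjusted p = 6.27e-21) in aged and 3.19 (SE 0.18, adjusted p = 2.54e-28) in young hosts. A neighbour 14.9 kb inside the gene (chr11:52268178-52268844) was higher by 2.54 (SE 0.31) and 3.34 (SE 0.29), with 323 and 376 in young Tprog against 27.2, 51.1 and 27.0 in young Tterm. By contrast the strongest Tcf7 peak, 16.4 kb upstream (chr11:52299318-52300198, mean 963), differed by 0.23 in aged hosts, not called, and by 0.46 in young hosts, called.

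Satb1 (chr17:51736187-51833290) held the largest young fold change of the 86 peaks. Its peak 46.5 kb upstream of the start (chr17:51879130-51880515) had 408 and 416 in aged Tprog, 188 and 139 in Ttad, 78.2 and 131 in Ttran and 68.6 and 46.7 in Tterm. The young values were 358 and 399 in Tprog, 88.7, 44.6 and 81.3 in Ttran and 37.9, 33.8 and 30.4 in Tterm. Tprog was higher by 2.84 (SE 0.32, adjusted p = 6.98e-12) in aged and by 3.44 (SE 0.29, adjusted p = 1.27e-17) in young hosts. Over all guides Tprog libraries lay between 242 and 444 and Tterm libraries between 20.2 and 70.5, without overlap. The main Satb1 start (chr17:51831453-51834191), the strongest peak of the locus with a mean of 458, did not show this: aged Tprog had 551 and 535 against 452 and 455 in Tterm, and young Tprog had 541 and 458 against 465, 461 and 547 (log2 fold changes of 0.26 and 0.02, not called).

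The alternative Satb1 start (chr17:51826256-51826958) was weak and higher in Tprog in both ages. It had 73.6 and 91.4 in aged Tprog against 38.1 and 21.99 in Tterm, and 64.5 and 47.1 in young Tprog against 23.4, 14.2 and 20.8. The log2 fold changes were 1.47 (SE 0.50, adjusted p = 0.0264) and 1.48, both called. In all, 4 of the 9 Satb1 peaks were higher in Tprog in each host age and none was lower.

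Bach2 (chr4:32238413-32586109) held the most peaks, and its differences were spread along the gene: 15 of 35 peaks were higher in aged Tprog and 4 lower, and in young Tprog 23 were higher and none lower. The broad peak 187 kb inside the gene (chr4:32423796-32426871) had 1440 and 1310 in aged Tprog, 1169 and 1175 in Ttad, 1109 and 1078 in Ttran and 1014 and 926 in Tterm. Its young values were 1178 and 1373 in Tprog, 786, 722 and 762 in Ttran and 621, 608 and 583 in Tterm. The difference was 0.50 (SE 0.09, adjusted p = 3.71e-06) in aged and 1.07 (SE 0.08, adjusted p = 1.3e-20) in young hosts. Aged Tterm libraries thus stood above all young Tterm and Ttran libraries. The largest Bach2 fold belonged to a weak peak (chr4:32461535-32462309), at 36.2 and 49.7 in aged Tprog against 6.54 and 1.83 in Tterm, and 58.7 and 27.4 against 2.53, 3.93 and 7.87 in young hosts (3.23, SE 0.68, and 2.94, SE 0.62).

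The strongest member of all, 11.5 kb inside Bach2 (chr4:32248425-32251499, mean 3008), was the only peak called in opposite directions in the 2 host ages. Aged Tprog had 2961 and 3038 and aged Tterm 3345 and 3442, a difference of -0.18 (SE 0.05, adjusted p = 0.00671), which was -0.01 and not called after quantile normalization. Young Tprog had 3010 and 3006 and young Tterm 2702, 2711 and 2524, a difference of 0.19 (SE 0.05, adjusted p = 0.00124). The Tprog libraries of both ages lay close together, and the Tterm libraries stood above them in aged and below them in young hosts. The peak over the annotated 5′ end of Bach2 (chr4:32238332-32240417) was not called in either age, with differences of 0.21 and 0.13.

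Myb (chr10:21124930-21160984) went the other way at its 3′ side. The peak 8855 bp past the end of the gene (chr10:21115176-21116075), with the next gene, Ahi1, 34747 bp away on the other side, had 126 and 132 in aged Tprog, 196 and 255 in Ttad, 522 and 371 in Ttran and 452 and 503 in Tterm. Young hosts gave 98.9 and 103 in Tprog, 304, 358 and 299 in Ttran and 334, 283 and 294 in Tterm. Tprog was the lowest state in both ages, and the Ttran libraries overlapped those of Tterm. The differences, Tprog over Tterm, were -1.88 (SE 0.19, adjusted p = 2.24e-13) and -1.58 (SE 0.18, adjusted p = 3.77e-12). Its neighbour at chr10:21118092-21119168 differed by -1.67 and -0.91, and a weaker one at chr10:21105262-21105657 by -1.5 and -1.76, all called. Far upstream, the peaks 57.5 and 63.1 kb before the start were higher in Tprog, by 0.99 and 0.64 in aged and 0.79 and 0.61 in young hosts.

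The Myb start was not called in either age: the peak over it (chr10:21159765-21161750) had 498 and 384 in aged Tprog against 457 and 400 in Tterm, and 434 and 400 in young Tprog against 463, 513 and 451. Of the 14 Myb peaks, 2 were higher and 5 lower in Tprog in each host age. The strongest, 44.0 kb upstream (chr10:21204034-21205943, mean 1306), was among the lower ones, at -0.40 in aged and -0.27 in young hosts.

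Lef1 (chr3:131110297-131224357) was mixed, with 3 of 16 peaks higher and 2 lower in aged Tprog and 3 higher and 1 lower in young Tprog. Its peak 52.8 kb upstream (chr3:131056970-131057929) had 357 and 379 in aged Tprog, 500 and 525 in Ttad, 784 and 654 in Ttran and 893 and 857 in Tterm. In young hosts the values were 653 and 541 in Tprog, 925, 756 and 818 in Ttran and 899, 795 and 875 in Tterm. Tprog was the lowest state in both ages, and the aged Tprog libraries were lower than the young. The difference was -1.25 (SE 0.12, adjusted p = 9.01e-15) in aged and -0.52 (SE 0.11, adjusted p = 7.79e-05) in young hosts. Another Lef1 peak, 44.5 kb inside the gene (chr3:131154605-131154932), went the opposite way, with 84.9 and 99.4 in aged Tprog against 21.8 and 32.1 in Tterm (1.76, SE 0.45, adjusted p = 0.00172) and a difference of 1.35 in young hosts. The peak nearest the Lef1 start (chr3:131110943-131113553), also its strongest with a mean of 832, differed by -0.12 and -0.17 and was not called.

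**Figure D2:**
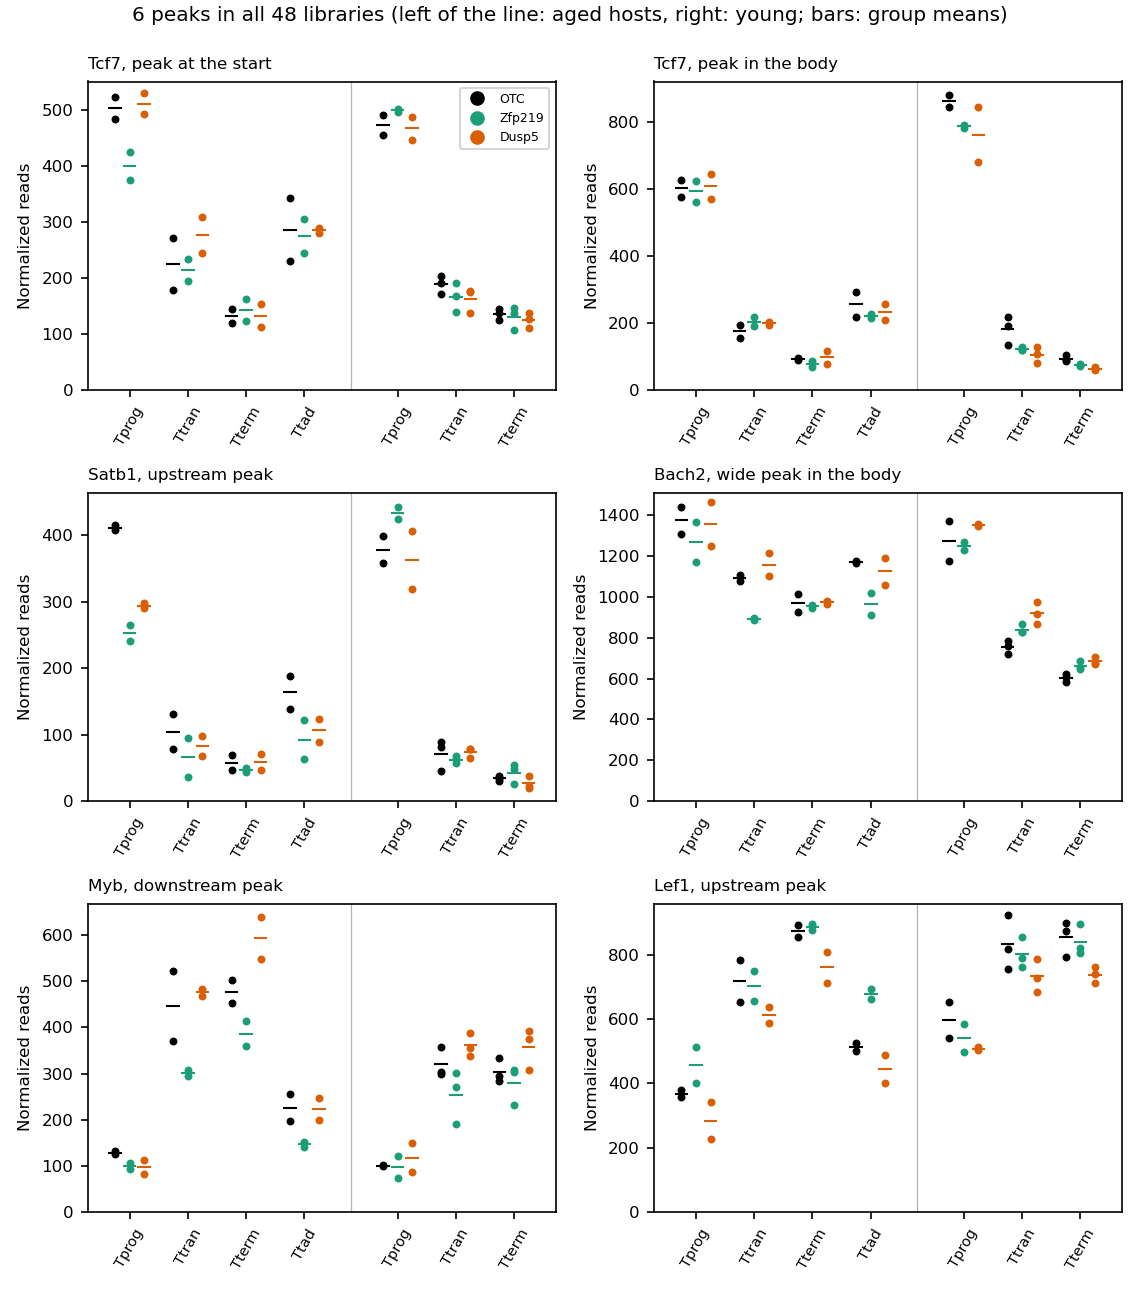
Normalised read counts of 6 member peaks in all 48 libraries (vertical axes), by sorted state, with aged hosts left and young hosts right of the line; colours are guides, points are libraries and bars are group means. Tprog libraries are the highest at the Tcf7 start (375 to 529), the Tcf7 body peak and the Satb1 upstream peak and are low at the Myb downstream and Lef1 upstream peaks.

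Tprog and Tterm cells were also sorted with the other guides, whose libraries the counts above do not compare. Peaks whose Tprog libraries all lay above all Tterm libraries numbered 43 of 86 with Zfp219 and 43 with Dusp5 in aged hosts, and 56 and 51 in young hosts, beside 30%, 27.8%, 27.3% and 28.1% of all peaks. The reverse held for 22, 16, 15 and 14 members, beside 29.1%, 29.6%, 26.6% and 27.2%.

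Ttran cells, which carry both sort markers, differed from Tprog at more of these sites than from Tterm. Against Tprog, 9 peaks were higher and 19 lower in aged hosts, beside 9.99% and 6.98% of all peaks (17% in all), and 8 were higher and 31 lower in young hosts, beside 9.07% and 7.82% (16.9% in all); the young count of 39 called members was 24 without young control Tprog replicate 1 and 21 without replicate 2. In young hosts 5 of 9 Satb1 and 6 of 12 Tcf7 peaks were lower in Ttran and none was higher. Bach2 had 18 of 35 lower and 1 higher, while Myb had 6 of 14 peaks higher and 2 lower. Against Tterm, Ttran was higher at 5 members in aged hosts, with 1.87% of all peaks higher and 1.35% lower (3.22% in all), and at 21, with 1 lower, in young hosts, with 5.02% higher and 3.36% lower (8.38% in all). The aged count was 1 with the compared groups alone and 2 without aged control Tterm replicate 1, Tterm replicate 2 or Ttran replicate 1, and the young count of 22 was 14 without young control Tterm replicate 3 or Ttran replicate 1. The 1 lower peak was the main Satb1 start (-0.43, SE 0.11, adjusted p = 0.00344).

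Ttad cells lack Slamf6, as Tterm cells do, yet 17 of the 86 peaks were higher in Ttad than in Tterm of aged hosts and 4 lower, beside 3.02% and 4.26% of all peaks (7.28% in all). At the Tcf7 start Ttad exceeded Tterm by 1.09 (SE 0.19, adjusted p = 1.8e-05) and differed from Tprog by -0.84 (adjusted p = 0.00168), so it stood between them. The Satb1 upstream peak was likewise intermediate, 1.5 (SE 0.32, adjusted p = 0.000653) above Tterm and -1.34 (adjusted p = 0.00312) against Tprog. In the Myb downstream peak Ttad was 0.79 (SE 0.19, adjusted p = 0.00445) above Tprog and -1.09 against Tterm. Of the higher peaks, 10 belonged to Bach2 and 5 to Tcf7.

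Against Tprog itself, 5 members were higher in Ttad and 6 lower (6.55% of all peaks called), a split that became 4 and 9 after quantile normalization or with edgeR and 3 and 10 when the compared groups were fitted alone. The 11 calls fell to 5 without control Tprog replicate 1, to 7 without Tprog replicate 2 or Ttad replicate 2 and to 6 without Ttad replicate 1. At Tcf7, 3 of the 12 peaks were lower in Ttad and none higher. At Bach2, 3 of the 35 were higher and none lower, and whether the 2 loci differ was not tested. Shares of all peaks by direction are not given for this comparison. Of the Bach2 calls, chr4:32248425-32251499 lay near the cutoff (adjusted p = 0.0472). With the compared groups alone, chr4:32138730-32140630 was not called (adjusted p = 0.05955). One of the 3, a peak 73.7 kb upstream of the Bach2 start (chr4:32164032-32165421), had 1350 and 1222 in Ttad, 1089 and 911 in Tprog and 1484 and 1541 in Tterm (Ttad over Tprog 0.37, SE 0.08, adjusted p = 0.00164). Against Ttran, 5 members were higher in Ttad and 8 lower (7.74% of all peaks called), and 3 and 5 after quantile normalization. The higher calls were all lost without Ttad replicate 1, and fewer members were called without Ttran replicate 1.

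Summed over each locus, Tprog lay above and Tterm below the other states at Tcf7, while Ttad and Ttran overlapped. The sum had group means of 5191 to 6098 in Tprog, 3933 to 4374 in Ttad, 3590 to 4017 in Ttran and 2837 to 3308 in Tterm over all guides and ages. Tprog groups of Satb1 lay between 1707 and 2040, above the Ttad (1313 to 1677), Ttran (1115 to 1414) and Tterm (1040 to 1488) groups. For Bach2, Tterm ranged widely, from 11849 to 15837, and Tprog from 15872 to 17137, while Ttad (16168 to 17501) overlapped Tprog. Ttran spanned both, from 13571 to 17521, and its highest group, aged control Ttran, was the highest of all 21. That rank depended on the scaling. In limma after quantile normalization, aged control Ttran was below Tprog (-0.0947, adjusted p = 0.00409). Ttad over Ttran was then 0.0947 (adjusted p = 0.00862). The Myb sums ran from 4198 to 4518 in Tprog, 4302 to 4691 in Ttad, 4479 to 5367 in Ttran and 4491 to 5560 in Tterm. For Lef1 the 4 states overlapped, with Tprog between 3453 and 4425 and Tterm between 3940 and 4565.

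In limma on these sums over 15013 genes, with 25% of genes called in aged and 34.6% in young hosts for Tprog against Tterm, Tcf7 was higher by 0.80 (adjusted p = 5.06e-32) and 0.94, Satb1 by 0.74 and 0.52 and Bach2 by 0.11 (adjusted p = 4.91e-05) and 0.46. Myb was lower, at -0.30 and -0.11, and Lef1 was not called (-0.08 and -0.04). Ordered by group mean, Tcf7 ran from 6098 in young Dusp5 Tprog to 2837 in aged Dusp5 Tterm, a ratio of 2.15, and 12 of the 20 neighbouring pairs in that order had overlapping libraries. The ratio of the highest to the lowest group was 1.96 for Satb1, 1.48 for Bach2, 1.36 for Lef1 and 1.32 for Myb, with 13, 16, 16 and 19 of 20 neighbouring pairs overlapping, so most adjacent groups could not be ordered. Across the 21 group means, which share donor cells and sort gates, the log2 sums of Tcf7 had a Pearson correlation of 0.80 with Satb1, 0.70 with Bach2, -0.40 with Lef1 and -0.61 with Myb.

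**Figure D3:**
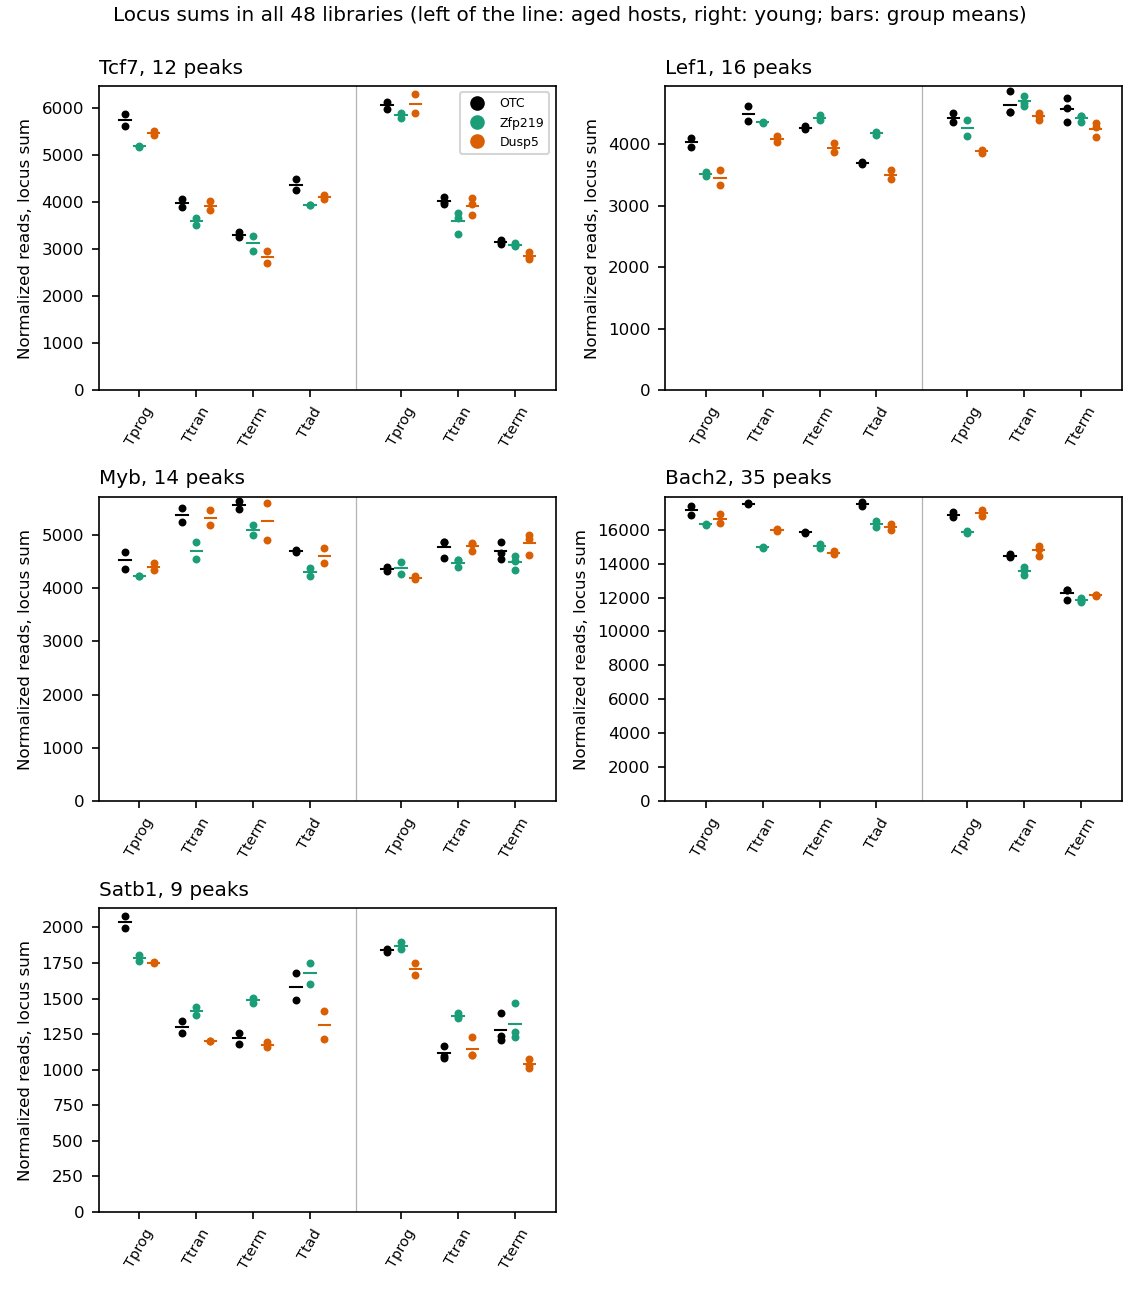
Normalised read counts summed over the peaks of each gene in all 48 libraries, by sorted state, with aged hosts left and young hosts right of the line; colours are guides, points are libraries and bars are group means. Tcf7 (5191 to 6098 in Tprog groups) and Satb1 are highest in Tprog, Myb lies at the low end of its range there, Bach2 is low in Tterm of young hosts, and the Lef1 states overlap.

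Among 6393 genes with at least 3 peaks, the loci that followed each member most closely over the 21 group means were, for Tcf7, Asap1, Cxcr5 and Cbfa2t3 (each r = 0.97), Cxcr5 being the follicular homing receptor carried by stem-like exhausted cells. For Bach2 they were Tomm20 (0.98), Ccr7 (0.96), the lymph node homing receptor, and Cd83 (0.95). Those for Satb1 included Zfp281 (0.94) and Spata48 (0.90). Myb was followed by Ncald (0.92), Igdcc3 (0.92) and Epn2 (0.91), and Lef1 by Sephs2 (0.92), Arsb (0.90) and Med4 (0.89). These are the highest of many correlations over groups that share sort gates, and they carry no test.

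The wider programme moved in the same comparison, in which 25% of all gene sums were called in aged and 34.6% in young hosts. Of 16 other genes of the stem-like or memory programme, 12 sums were higher and 1 lower in aged Tprog than Tterm and 11 higher and 1 lower in young Tprog, with medians of 0.40 and 0.58 where all genes had -0.01. Slamf6, whose product was a sort marker, was higher by 1.07 and 1.52, Id3, an inhibitor of E proteins, by 1.10 and 1.67, and Ccr7 by 0.48 and 1.19. Bcl11b, a T cell identity factor, was the 1 lower gene. Of 16 terminal-exhaustion or effector genes, 1 was higher and 12 lower in aged Tprog (2 and 9 after quantile normalization) and 4 higher and 8 lower in young Tprog. Havcr2, which encodes the sort marker Tim-3, was lower (-0.83 and -0.62), as was Prdm1, the gene of BLIMP1 (-0.76 and -0.48), whereas Tox, the factor that establishes exhaustion, was higher (0.29 and 0.20). Among 12 Wnt pathway genes and TCF cofactors, 2 were higher and 3 lower in aged (3 and 1 after quantile normalization) and 4 higher and 2 lower in young hosts. Axin2, a feedback target of Wnt signalling, was higher by 0.90 and 0.94. Tcf7l1 was lower in both ages (-0.37 and -0.57), Tle3 and Pygo2 were lower in aged hosts and Apc in young hosts. In Ttad against Tterm (12.1% of genes called), 10 of the 16 stem-like genes were higher and 2 lower, against 2 higher and 7 lower terminal genes and 2 higher and 1 lower Wnt genes (1 and 2 with edgeR).

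Bach2 held most of the peaks that differed with host age. Averaged over Tprog, Ttran and Tterm of the control guide, 30 members were higher in aged hosts and 4 lower, beside 17.3% higher and 19.1% lower among all peaks (36.5% in all). Bach2 held 20 of the 30, and none of its peaks was lower, whereas Tcf7 had 1 higher and 1 lower, Satb1 2 higher, Myb 5 higher and Lef1 2 higher and 3 lower. The sample numbers in the table's header run from 1 to 24 within each host age, so age and that numbering cannot be told apart. Summed values of the myeloid list, 2 of whose 5 genes had peaks, were 614.8 to 745.2 in aged and 785.4 to 909.5 in young control libraries of these 3 states, and their part in these differences was not tested.

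A weak Bach2 body peak (chr4:32314893-32315390) separated the ages completely, at 36.9 to 54.3 in the 8 aged control libraries and 3.94 to 24.3 in the 8 young ones (1.89, SE 0.30, adjusted p = 1.22e-07). The Bach2 peak at chr4:32267291-32268460 had 228 and 181 in young Tprog against 354 and 320 in aged, and 80.3, 73.9 and 57.4 in young Tterm against 146 and 170 (0.90, SE 0.12, adjusted p = 1.14e-09). A weak Lef1 body peak (chr3:131169044-131169629) had the largest age difference, at 87.2 and 90.5 in aged and 26.5 and 29.9 in young Tprog, and 47.9 and 46.7 in aged and 4.42, 4.72 and 5.62 in young Tterm (2.27, SE 0.30, adjusted p = 9.42e-10). As locus sums, Bach2 was higher in aged hosts by 0.22 (adjusted p = 6.73e-33), Myb by 0.16 and Satb1 by 0.10 (adjusted p = 0.0355), Lef1 was lower (-0.09) and Tcf7 was not called (-0.01), with 43% of genes called.

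Summed over Bach2, Tprog and Tterm differed less in aged than in young hosts. The difference between the ages in Tprog over Tterm was called at 5 members, all negative (2.32% of all peaks called): 4 at Bach2 and the Lef1 upstream peak. The count was 3 after quantile normalization and 10 with edgeR, of which 1 was higher and 9 were lower. At the broad Bach2 body peak it was -0.57 (SE 0.12, adjusted p = 0.00129), from differences of 0.50 in aged and 1.07 in young hosts. At the Lef1 upstream peak it was -0.72 (adjusted p = 0.00323). On the locus sum it was -0.35 for Bach2 (adjusted p = 9.04e-17) and -0.19 for Myb (adjusted p = 0.0218), with 8.75% of genes called. After quantile normalization the Myb difference was -0.05 (adjusted p = 0.75) and was not called. None of the 12 Tcf7 or 9 Satb1 peaks was called. One Tcf7 peak, 30.9 kb upstream (chr11:52313585-52314948), lay near the cutoff with a positive difference (0.59, SE 0.18, adjusted p = 0.0573).

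The 2 knockout guides are each compared with the same control libraries, so their differences are not independent. With the Zfp219 guide, which targets a zinc finger gene, 6 members were higher and 22 lower in aged hosts averaged over the 4 states, beside 12.1% higher and 13.7% lower among all peaks (25.8% in all). Lower peaks were found at Bach2 (11, with 3 higher), Tcf7 (5), Myb (3), Lef1 (2, with 2 higher) and Satb1 (1, with 1 higher). The Satb1 upstream peak had 242 and 265 in aged Tprog with the Zfp219 guide against 408 and 416 with the control, and the difference over the 4 states was -0.65 (SE 0.16, adjusted p = 0.00089) over the 4 states. The weak Lef1 body peak at chr3:131169044-131169629 lay between 8.62 and 26.9 in the 8 aged Zfp219 libraries, below all 8 aged control libraries, which started at 28.5 (-1.97, SE 0.28, adjusted p = 1.43e-08). At the Myb peak chr10:21118092-21119168, aged Tterm had 151 and 143 with the Zfp219 guide against 250 and 269 with the control (-0.45, SE 0.11, adjusted p = 0.000629).

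In young hosts the Zfp219 guide gave 1 higher and 6 lower members (7.07% of all peaks called), 4 calls without young Zfp219 Tprog replicate 1, and 2 higher and 3 lower after quantile normalization. The Tcf7 body peak at chr11:52268178-52268844 was lower in both ages, at -0.61 (SE 0.16, adjusted p = 0.00766) in young and -0.41 (SE 0.16, adjusted p = 0.044) in aged hosts. In aged Ttad alone, 1 member was higher and 5 lower (8.23% of all peaks called; none higher and 4 lower after quantile normalization), and the 6 calls became 2 without either control Ttad library and 1 without either Zfp219 Ttad library. The Bach2 peak at chr4:32267291-32268460 was one of them, with 241 and 248 in Zfp219 Ttad against 527 and 367 in control Ttad (-0.84, SE 0.22, adjusted p = 0.00703). As sums in aged hosts (36.8% of genes called), Tcf7 (-0.13), Myb (-0.14) and Bach2 (-0.12) were lower, but at -0.04, -0.02 and -0.02 none of these was called after quantile normalization. Lef1 and Satb1 were not called, but Lef1 turned to 0.09 after quantile normalization and was then called higher (adjusted p = 0.000272).

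With the guide against Dusp5, a phosphatase gene that acts on ERK, 2 members were higher and 16 lower in aged hosts (4.35% and 7.87% of all peaks, 12.2% in all). Lef1 had 5 lower peaks of 16, Bach2 5 of 35, Satb1 2 of 9, Tcf7 2 of 12 and Myb 2, with 2 higher, of 14. The alternative Satb1 start was lower (-0.79, SE 0.25, adjusted p = 0.0249). At the Lef1 upstream peak the difference was -0.26 in aged and -0.21 in young hosts, both called. In young hosts 1 member was higher and 6 lower (3.82%), with 4 calls without young Dusp5 Tprog replicate 1 and 3 without young control Tprog replicate 1; the split was 2 and 4 after quantile normalization and 2 and 6 with edgeR or with the compared groups alone. The Tcf7 body peak at chr11:52273512-52275959 was lower in young hosts (-0.50, adjusted p = 0.000563). In aged Ttad 1 member was called, the strongest Bach2 peak (-0.18, adjusted p = 0.0289), beside 2.88% of all peaks called. That call was lost when either control Ttad library was left out, which leaves a lone library in that group. No member was called there after quantile normalization, with edgeR, with library weights or with the compared groups alone. As sums in aged hosts (20.6% of genes called), Satb1 (-0.16), Lef1 (-0.14), Tcf7 (-0.10) and Bach2 (-0.10) were lower. After quantile normalization Lef1 (-0.04) and Tcf7 (-0.008) were not called, and Bach2 turned to 0.02.

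The difference between the ages in a guide's effect was called at 4 members for Zfp219, 2 at Lef1 and 2 at Bach2 and all more negative in aged hosts (9.11% of all peaks called), with 2 calls without aged Zfp219 Tprog replicate 1 or young control Tprog replicate 1. For Dusp5 it was called at 3 Tcf7 peaks (4% of all peaks called). Neither guide's count was a larger share of the 86 members than of all peaks. At the Tcf7 body peak chr11:52273512-52275959 the Dusp5 effect was 0.59 higher in aged than in young hosts (SE 0.15, adjusted p = 0.0102).

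Set against each other in aged hosts, the 2 knockout guides differed at 23 members, 13 higher and 10 lower with Zfp219 (22.3% of all peaks called). Satb1 held 5 of the 13, out of 9 peaks, and none lower. At the Satb1 body peak chr17:51806114-51807184, aged Tprog had 144 and 69.0 with the Zfp219 guide, 23.5 and 31.5 with the Dusp5 guide and 54.3 and 70.1 with the control (1.3, SE 0.27, adjusted p = 0.000109). Myb had 4 lower and 1 higher with Zfp219, among them chr10:21118092-21119168 (-0.79, SE 0.11, adjusted p = 1.04e-08), where aged Tprog had 73.9 and 96.4 with the Zfp219 guide and 138 and 106 with the Dusp5 guide. The Lef1 upstream peak was higher with Zfp219 (0.43, adjusted p = 2.17e-08). On the sums, Satb1 was higher by 0.24, Lef1 higher by 0.14 and Myb was lower (-0.10).

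In the same list of 16 stem-like genes, 2 sums were higher and 9 lower with Zfp219 in aged hosts (5 and 9 after quantile normalization), and 2 were higher and 4 lower with Dusp5 (5 and 3). The 16 terminal genes had 3 higher and 7 lower with Zfp219 and 0 higher and 8 lower with Dusp5, splits that turned to 8 and 2 and to 5 and 2 after quantile normalization, so their direction depended on the scaling. Of the 12 Wnt pathway genes and cofactors, 4 were higher and 2 lower with Zfp219 (3 and 3) and none was higher and 4 were lower with Dusp5. With host age (aged over young), 8 stem-like genes were higher and 5 lower, and 5 terminal genes were higher and 8 lower. Among all 15013 genes, 36.8% were called in either direction with Zfp219, 20.6% with Dusp5 and 43% with host age.

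**Figure D4:**
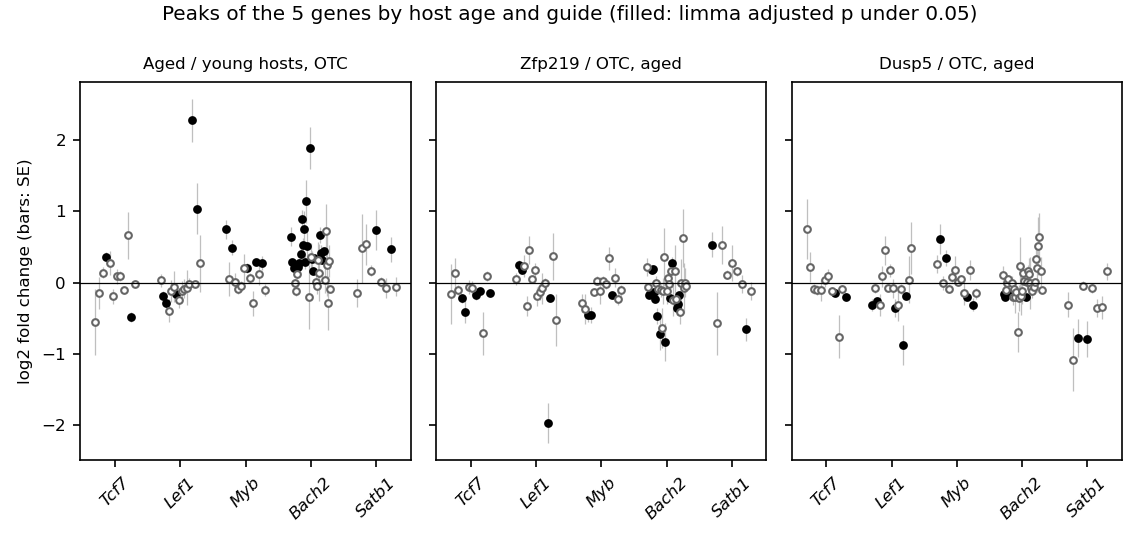
Log2 fold changes of the 86 peaks, by gene, for aged over young hosts (control guide) and, in aged hosts, for the Zfp219 and the Dusp5 guide over the control; points are peaks, bars are standard errors and filled points were called. The Bach2 peaks lie mostly above 0 for host age, and the called Tcf7 and Myb peaks lie below 0 for Zfp219.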

How the data were processed

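ATAC-seq signal for 53868 peaks in 48 libraries was used as deposited: per the file headers each column is a normalised count of 1 library, and the values are whole reads divided by 1 factor per library, since whole reads were recovered for 100% of values (tolerance 0.0001). Per the submitters' processing notes the build was mm10 and the tools included Bowtie2 2.2.9, Picard 2.8.0, SAMtools 1.3.1, MACS2 2.1.1 and DESeq2 1.28.1, whose roles and the handling of duplicates and of the Tn5 offset are not given in the sources used here. Peak coordinates were read as GRCm38: 26.2% of RefSeq gene boundaries lay in a peak, against 4.22% after a shift of 20000 bp. Gene names, bodies and start windows came from RefSeq tables of GRCm38.p6.

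Reads in peaks ranged from 5638413 to 29942755 per library, and weak peaks are the least precise. Groups and replicate numbers came from sample titles. limma 3.58.1 (R 4.3.3; lmFit, eBayes with a trend) was fitted to log2(value + 1) over all 48 libraries with 1 mean per group, with Benjamini-Hochberg adjustment over all peaks, or over 15013 genes for sums of a gene's peaks. Folds on this scale understate changes of weak peaks. The script was tested on simulated data. The settings varied were the pseudocount (8), the weakest peaks (25% left out), quantile normalization, edgeR 4.0.16 (TMM, quasi-likelihood) on the recovered reads, library quality weights, the compared groups alone, a replicate block and each library left out in turn.

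Named peaks were, for each gene, the strongest, the one over the start and the one with the largest called fold change between Tprog and Tterm in each host age, and, over the 5 genes, the largest called rise and fall in each other comparison; the remaining peaks named were chosen after their values were seen. The 5 genes and the gene lists were chosen with earlier results of these data known. The peak sequences themselves were not used here. Some genes of the marker lists and of the loci most like each member are not reported here.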

Additional observations from a re-analysis of the deposited data

Results flagged for a closer look

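These results differ between aged and young hosts by a test of the difference itself (limma, interaction contrast, adjusted over all peaks or all genes). Groups of 2 or 3 libraries allow no test for a single outlying library.

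For Tprog over Tterm with the control guide, 5 members were called, all more negative in aged hosts (2.32% of all peaks called). They were the Lef1 upstream peak chr3:131056970-131057929 (-0.72), the Bach2 flanking peaks chr4:32164032-32165421 (-0.57) and chr4:32179423-32180579 (-0.50), the strongest Bach2 peak chr4:32248425-32251499 (-0.36) and the broad Bach2 body peak chr4:32423796-32426871 (-0.57). At chr4:32164032-32165421 aged Tprog had 1089 and 911 against 1484 and 1541 in aged Tterm, while the young difference was -0.03. On locus sums the same difference was -0.35 for Bach2 and -0.19 for Myb. The Myb value became -0.05 (adjusted p = 0.75) after quantile normalization and was not called.

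For Zfp219 over control in the 3 states present at both ages, 4 members were called, all more negative in aged hosts (9.11% of all peaks called): the Lef1 peaks chr3:131084739-131085613 (-0.64) and chr3:131169044-131169629 (-1.99) and the Bach2 peaks chr4:32314893-32315390 (-1.56) and chr4:32423796-32426871 (-0.23). As a share of the 86 members this count was below that over all peaks. The count was 2 without aged Zfp219 Tprog replicate 1 or young control Tprog replicate 1. At chr3:131169044-131169629 young Tprog had 17.8 and 14.6 with the Zfp219 guide against 26.5 and 29.9 with the control, and aged Tprog had 24.2 and 18.3 against 87.2 and 90.5. The Bach2 sum differed by -0.049. That call was lost with a pseudocount of 8, without the weakest 25% of peaks and after quantile normalization (adjusted p = 0.20). It was also lost with library weights (adjusted p = 0.0505) and with a replicate block (adjusted p = 0.0501).

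For Dusp5 over control, 3 members were called (4% of all peaks called), all at Tcf7: the body peak chr11:52273512-52275959 (0.59) and the upstream peaks chr11:52293876-52294986 (-0.35) and chr11:52318182-52319415 (-0.30). The 3 calls were no larger a share of the 86 members than the calls over all peaks. The count was 5 without aged Dusp5 Tterm replicate 1 or aged control Ttran replicate 2. It was also 5 without young Dusp5 Ttran replicate 2 or young control Tprog replicate 1. At chr11:52293876-52294986 young Tprog had 732 and 586 with the Dusp5 guide against 509 and 491 with the control, and aged Tprog had 487 and 526 against 574 and 554. The Bach2 sum differed by -0.10, which turned to 0.0119 (adjusted p = 0.81) after quantile normalization.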

How the results depend on the processing

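Over the counts of called members, 123 values under the alternatives that keep all libraries stayed within 1.5 times the count reported and 17 moved further. Without the weakest 25% of peaks, the difference between the ages in Tprog over Tterm had 9 calls (5 reported) and that in Dusp5 over control had 5 (3 reported). Quantile normalization gave 8 calls for Ttad against Ttran, 3 for the age difference in Tprog over Tterm and 0 for Dusp5 in aged Ttad. With edgeR these were 10 for the age difference in Tprog over Tterm, 0 for Dusp5 in aged Ttad and 5 for the age difference in Dusp5. Library weights gave 3 calls for Ttran against Tterm in aged hosts, 7 for Ttad against Ttran, 10 for the age difference in Tprog over Tterm and 0 for Dusp5 in aged Ttad. With the compared groups alone the 5 counts were 1, 7, 10, 0 and, for the age difference in Dusp5, 6.

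Leaving out 1 library at a time, with a lone remaining library assumed to vary like the others, gave 29 to 31 calls for Tprog against Tterm in aged and 38 to 47 in young hosts, 21 to 35 for Ttran against Tprog in young hosts, 2 to 4 and 14 to 18 for Ttran against Tterm in aged and young hosts, 5 to 7 for Ttad against Tprog and 6 to 11 for Ttad against Ttran. For Zfp219 it gave 4 to 8 calls in young hosts, 1 to 2 in aged Ttad and 2 to 5 for the age difference, and for Dusp5 3 to 7, 0 to 2 and 2 to 5. Of the named peaks, 22 values lost and 7 gained the call under the alternatives that keep all libraries, with none reversed. For named peaks and locus sums alike, calls were lost more often when 1 library was left out than under those alternatives.

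Of the locus sums, 656 values kept direction and call under those alternatives, 28 lost the call, 8 gained it and 8 reversed, all 8 under quantile normalization: Lef1 in Ttran over Tprog, aged (-0.0228), and in Zfp219 over control, aged (0.0936), and Bach2 in Ttran over Tprog, aged (-0.0947), Ttad over Ttran (0.0947), Zfp219 over control in young hosts (0.0169) and in aged Ttad (0.00492), Dusp5 over control in aged hosts (0.0194) and its age difference (0.0119). The cause was not tested.

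Deviations of same-numbered libraries from their group means had correlations of -0.0184 to 0.017. In aged hosts, with 2 libraries per group, the 2 numbers gave the same values. Such values do not show whether same-numbered pools shared mice. With the number as a replicate block the counts stayed within 1.5 times, for example 44 against 43 and 47 against 48 for Tprog against Tterm in aged and young hosts and 28 against 34 for host age. Weak peaks such as chr4:32307298-32307552 (mean 8.20) rest on few reads, and whether a difference not called there is absent or too small for this depth was not tested.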
